A study of Rattus norvegicus with 6 samples.

Results

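The genes described here encode the proteins of the cell's ribosomes: cytosolic members have symbols of Rpl or Rps plus a digit, Rplp0 to Rplp2 or Rpsa (the Rps6k kinases were left out), and mitochondrial members have symbols of Mrpl or Mrps plus a digit. By their RefSeq accessions the array held 84 cytosolic genes on 244 probes and 67 mitochondrial genes on 114 probes, 151 of the 15645 genes that could be named. Of these, 80 cytosolic genes (237 probes) and all 67 mitochondrial genes (113 probes) passed the filter on dim probes, and each of them was well above background on all 6 arrays and saturated on none. Rpl27l2, Rpl39l1, Rps12l4 and Rps7-ps20 did not pass.

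Liver RNA came from 6 male Sprague-Dawley (Crl:CD(SD)) rats bought at 5 weeks of age, with 1 Cy3-labelled Agilent array for each animal. The vehicle group (n = 3) was given corn oil, and the TBBC group (n = 3) was given TBBC at 300 mg/kg/day, a phenolic antioxidant in which one sulfur atom bridges both 6-tert-butyl-m-cresol rings at their 4 and 4' positions. The labels give 28 days in one place and 9 weeks of dosing in another. All vehicle arrays lay on one slide and all TBBC arrays on another, so slide and treatment cannot be told apart. The 75th percentile of the processed signal was 465.2 to 638.2, and 36919 to 39386 of 61537 probes were well above background on an array. Across all tested features the arrays correlated at 0.9865 to 0.9908 within the groups and at 0.9754 to 0.9843 between them. Precision is limited by there being 3 arrays in a group.

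The cytosolic ribosome reads messenger RNA made in the nucleus. Its proteins are imported into the nucleus and assembled with ribosomal RNA into a small subunit, which decodes the message, and a large subunit, which forms the peptide bonds. In vertebrates their messages begin with a pyrimidine-rich 5′ terminal oligopyrimidine (TOP) tract, through which mTOR signalling sets how strongly they are translated, and in liver they are among the abundant messages. The mitochondrial ribosome translates the few respiratory chain proteins encoded by mitochondrial DNA. Its proteins are nuclear-encoded and imported, and their genes are often bound by NRF-1 and by ETS factors.

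The annotated starts of both classes were read from RefSeq promoter windows (build GRCr8), since TOP tracts sit at the start; 118 of the 147 measured genes had a window. In the sequences below, 20 bases before the annotated start are followed by 10 bases from it, on the strand of the gene. Capitals mark a TOP start (C, then 4 bases that are each C or T, from the annotated start) or, in a mitochondrial gene, a match to TGCGCA, the half-site of NRF-1-type motifs. Rps15, Rplp0, Rplp1, Rpl19 and Rps2 are shown for the cytosolic class because the values below turn on them, and Mrps18b, Mrpl17 and Mrpl48 as the mitochondrial genes with the highest difference, with 4 probes that were all positive, and with the lowest difference.
Rps15: gcagccgctgacaccgcttcCTTTTcccag
Rplp0: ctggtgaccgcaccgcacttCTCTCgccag
Rplp1: tgcgcgcaggcgcatgtgatCCTTTcctca
Rpl19: gagcccgcgaccagcaagctCTTTCctttc
Rps2: gcctccctcttctttttcttcgggaaaaca
Mrps18b: gcgcaTGCGCAgtcgttcttccggcaggcc
Mrpl17: acTGCGCAtgcgtcctctggaaagtgactc
Mrpl48: ggacctgatgaagacctttccggtcgcgtt

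These windows lie at chr7:10068106-10068135 (minus strand) for Rps15, chr12:46718381-46718410 (minus) for Rplp0, chr8:71290863-71290892 (minus) for Rplp1, chr10:83519044-83519073 (plus) for Rpl19 and chr10:14251828-14251857 (plus) for Rps2. The mitochondrial windows lie at chr20:2842986-2843015 (plus) for Mrps18b, chr1:169575690-169575719 (minus) for Mrpl17 and chr1:164351367-164351396 (minus) for Mrpl48. Rps2 had a pyrimidine run just before its annotated start and no TOP start at it. A TOP start was present at 23 of 63 cytosolic genes (36.5%), at 2 of 55 mitochondrial genes (3.64%) and at 881 of all 33469 promoters (2.63%). The motif TGCGCA, which reads the same on both strands, was present in the 300-base windows of 16 of 55 mitochondrial genes (29.1%), 11 of 63 cytosolic genes (17.5%) and 7.24% of all promoters. The ETS-type motif CCGGAAG, searched on both strands of the same windows, was present at 19 mitochondrial genes (34.5%), 18 cytosolic genes (28.6%) and 8.75% of all promoters; its reverse complement, CTTCCGG, can overlap a TOP start. A match is a description of these letters and no evidence of binding.

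Scaled to each array's 75th percentile, most cytosolic ribosomal protein genes had slightly lower values in the TBBC livers, mitochondrial ones lay on both sides of 0, and no gene of either class passed the test. Of the 80 cytosolic genes, 75 had a negative log2 difference (TBBC minus vehicle), against 57.6% of all 29326 features, and the median difference was -0.21 against -0.06 over all features. Of the 67 mitochondrial genes, 30 were negative and 37 positive, with a median of 0.03. These directions rest on the scaling: with scaling on the spike-in control spots, the median of all features became 0.16, that of the cytosolic class 0.01 (37 of 80 negative) and that of the mitochondrial class 0.25 (1 of 67 negative). Relative to all features the medians were -0.15 and 0.09 under either scaling, since a factor per array cancels there. The spike-in scaling used 8 control probes. Vehicle 2 had the lowest 75th percentile, 465.2 against 577.9 to 638.2 on the other arrays. Its mean log2 spike-in signal, 13.34, lay within the 13.24 to 13.35 of the other arrays. How far the spike-in result rests on vehicle 2 was not tested. The median of the mitochondrial class exceeded that of the cytosolic class by 0.24, and by 0.20 to 0.30 over the alternative settings. Median centring, spike-in scaling, the replicate block and the other eBayes setting cannot change this gap. Less RNA per cell and fewer cells of a type cannot be told apart in whole liver.

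No cytosolic gene and no mitochondrial gene had an adjusted p under 0.05 (limma, Benjamini-Hochberg over all features), where 3.08% of all features passed (492 higher and 410 lower with TBBC). The lowest adjusted p was 0.103 in the cytosolic and 0.138 in the mitochondrial class. At an unadjusted p under 0.05, 22 cytosolic genes were lower and 1 was higher, against 13.5% and 9.48% of all features, and 0 mitochondrial genes were lower and 4 higher. After a normexp background correction of the median spot signals, 3 cytosolic genes, Rpl19 and Rpl36 among them, and 0 mitochondrial genes passed, where 5.42% of all features did. All 3 TBBC arrays lay below all 3 vehicle arrays for 54 of the 80 cytosolic genes, against 18.8% of all features, and above them for 1, against 12.3%. In the mitochondrial class the groups did not overlap for 16 genes, 5 below and 11 above. These counts also rest on the scaling: the 54 became 25 with arrays centred on their medians and 0 with spike-in scaling. Members of a class share the same 6 arrays, so these counts are not independent observations of the treatment.

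The shift was read array by array by taking each gene's log2 signal minus its own mean over the 6 arrays. The median of the cytosolic class was 0.08, 0.14 and 0.10 on vehicle arrays 1 to 3 and -0.18, -0.01 and -0.13 on TBBC arrays 1 to 3. TBBC 2 was thus the treated array nearest to the vehicle arrays, and the groups did not overlap. In the mitochondrial class the medians were 0.04, -0.05 and -0.02 on the vehicle arrays and -0.01, 0.10 and -0.04 on the TBBC arrays, with the groups overlapping. The medians of all features were 0.03, 0.06 and 0.00 on the vehicle arrays and -0.03, -0.01 and -0.04 on the TBBC arrays. Subtracting the mitochondrial from the cytosolic median, which removes any scaling factor of a whole array, gave 0.04, 0.19 and 0.12 on the vehicle arrays (0.12 ± 0.07, SD, n = 3) and -0.17, -0.11 and -0.09 on the TBBC arrays (-0.12 ± 0.04, SD, n = 3). Every vehicle array was above every TBBC array on this measure, by a mean of 0.24. No p is given for a value built over the members, which were chosen with results of these data known.

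**Figure D1:**
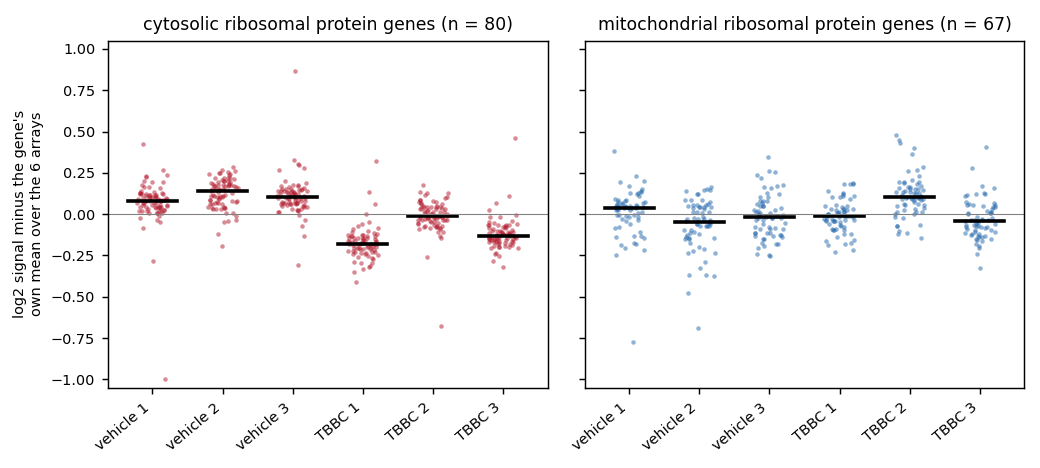
Each point is a ribosomal protein gene on 1 array, placed by its log2 signal minus the gene's own mean over the 6 arrays (vertical axis, log2 units), and bars are class medians. Scaled to the 75th percentile, the cytosolic medians lie at 0.08 to 0.14 on vehicle arrays and at -0.18 to -0.01 on TBBC arrays, while the mitochondrial medians overlap; spike-in scaling moves both classes up together, to median differences of 0.01 and 0.25.

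The TBBC arrays ordered many of the genes alike. Of the 3 TBBC arrays, TBBC 2 gave the highest value for 75 of the 80 cytosolic genes and for 50 of the 67 mitochondrial genes, and TBBC 1 gave the lowest for 61 cytosolic genes. The same order was not counted over all features. Their median was also highest on TBBC 2, at -0.01 against -0.03 on TBBC 1 and -0.04 on TBBC 3. An offset of a whole array moves every gene alike, and its part in this order was not tested. Among the vehicle arrays, vehicle 2 was highest for 41 cytosolic genes and lowest for 15. The median SD within groups was 0.09 for the cytosolic genes, 0.11 for the mitochondrial genes and 0.20 over all features. The SD of the cytosolic array medians was 0.03 among vehicle and 0.09 among TBBC arrays.

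Both subunits of the cytosolic ribosome showed the shift. The 50 large-subunit genes had a median difference of -0.22, with 47 negative and 35 with all TBBC arrays below all vehicle arrays. The 30 small-subunit genes had a median of -0.19, with 28 negative and 19 not overlapping in that direction. Of all features, 57.6% were negative and 18.8% had all TBBC arrays below all vehicle arrays. In the mitochondrial ribosome the 42 large-subunit genes had a median of 0.02 and the 25 small-subunit genes a median of 0.03. Under spike-in scaling all 4 medians moved up with the arrays, as given above for the classes. No cytosolic gene then had all TBBC arrays below all vehicle arrays.

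**Figure D2:**
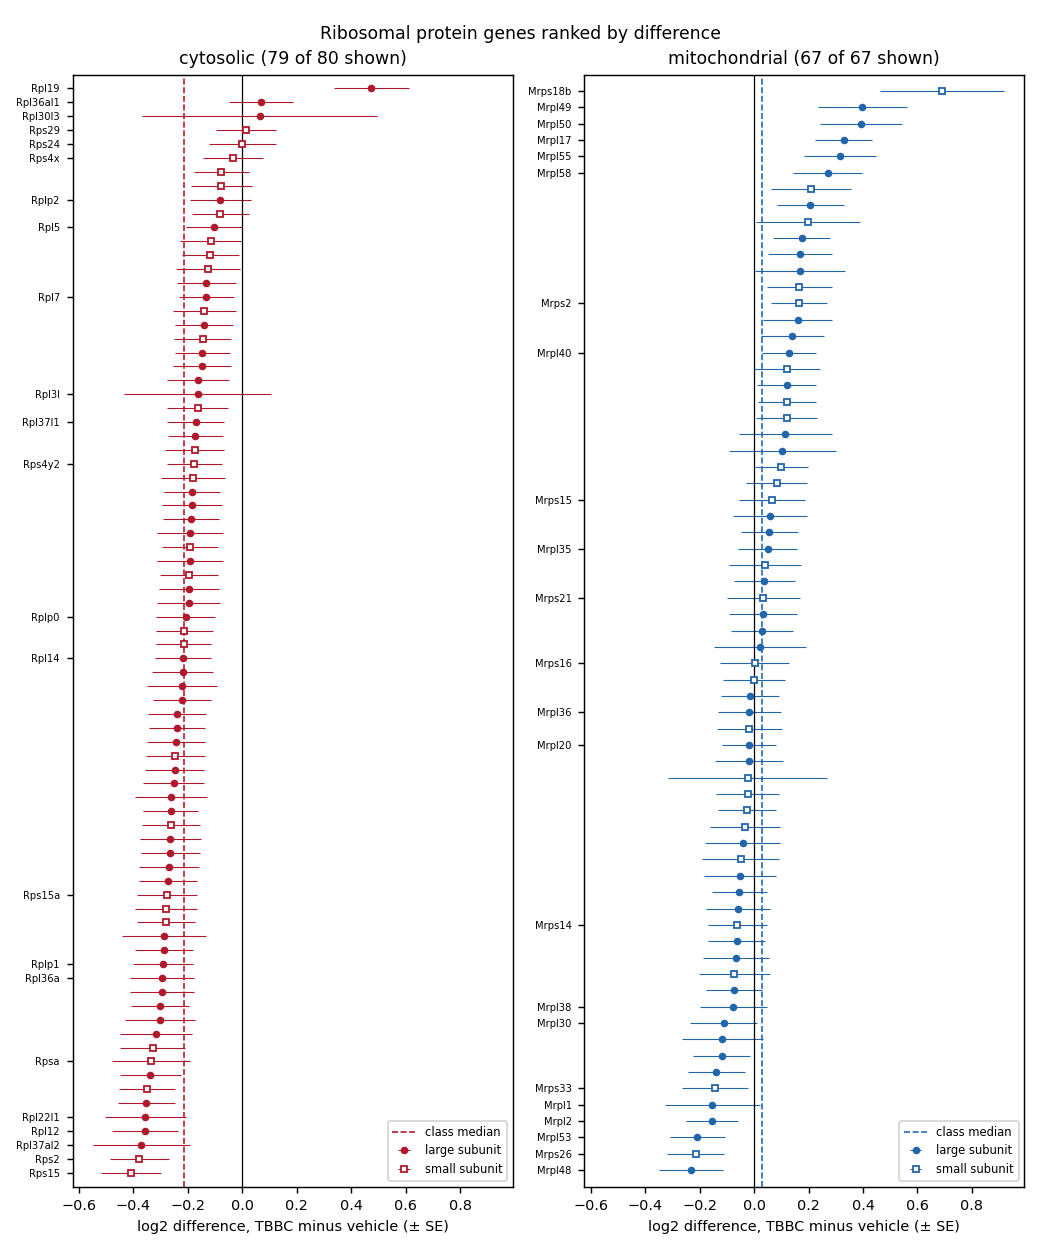
Measured ribosomal protein genes (1 cytosolic gene is not shown) are ranked by their log2 difference, TBBC minus vehicle (horizontal axis, ± SE of the limma fit). The cytosolic class is on the left and the mitochondrial class on the right. Labels mark genes picked by the naming rule given with the processing, so Rpl15 and Rpl36 are not labelled. Filled circles are large-subunit and open squares small-subunit proteins. The dashed line is the class median (-0.21 and 0.03, or 0.01 and 0.25 under spike-in scaling). The cytosolic genes lie left of 0 except for 5, with Rpl19 alone at 0.47, and the mitochondrial genes spread on both sides.

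The lowest cytosolic differences included small-subunit genes. Rps15, which sits in the head of the small subunit, had log2 signals of 7.06, 7.08 and 6.98 in the vehicle livers and 6.50, 6.70 and 6.69 in the TBBC livers. Its groups did not overlap, and its difference was -0.41 ± 0.11 (SE), a ratio of 0.752, with an adjusted p of 0.103 (limma). Rps2, a protein near the messenger RNA entry channel, read 8.62, 8.72 and 8.62 against 8.17, 8.37 and 8.27 (-0.38 ± 0.11, limma adjusted p = 0.117). In both genes the TBBC arrays lay below the vehicle arrays, with TBBC 1 lowest. Over the alternative settings the difference of Rps15 ran from -0.45 to -0.19 and that of Rps2 from -0.43 to -0.16, none of them above 0.

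In the large subunit the elongation factor-binding stalk was covered by its base protein Rpl12, its anchor Rplp0 and the paired acidic proteins Rplp1 and Rplp2. Rpl12 averaged 7.25 ± 0.10 (SD, n = 3) in the vehicle livers and 6.89 ± 0.13 in the TBBC livers, a difference of -0.36 ± 0.12 (SE). Rplp1 averaged 9.18 ± 0.06 against 8.89 ± 0.10 (ratio 0.817, limma adjusted p = 0.184). Rplp0, often used as a reference gene, read 9.08, 9.23 and 9.11 against 8.88, 9.02 and 8.90 (ratio 0.865, limma adjusted p = 0.297). The groups did not overlap for these 3 genes. Rplp2, the partner of Rplp1, read 8.19, 8.30 and 8.17 against 8.03, 8.26 and 8.13, with the groups overlapping (-0.08 ± 0.11). The sign of the Rplp0 difference turned to 0.01 under spike-in scaling, and that of Rplp2 ranged from -0.14 to 0.14 over the settings. The brightest probe of Rpsa, a small-subunit protein also known as a laminin receptor, read 6.18, 6.13 and 5.95 against 5.60, 5.66 and 5.99. TBBC 3 thus overlapped the vehicle arrays (-0.34 ± 0.14, limma adjusted p = 0.229). Of the 4 Rpsa probes 2 were negative and 2 positive, from -0.34 to 0.18.

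At the other end of the cytosolic ranking stood Rpl19, which forms bridges between the subunits. Its brightest probe read 7.46, 7.63 and 7.44 in the vehicle livers and 7.88, 7.87 and 8.21 in the TBBC livers, the one cytosolic gene with all TBBC arrays above all vehicle arrays (0.47 ± 0.14, limma adjusted p = 0.118). The other 3 Rpl19 probes differed by -0.17, -0.20 and -0.08, close to the rest of the class, and the mean over the 4 probes gave 0.01. The remaining positive or near-zero genes were Rpl36al1 (0.07 ± 0.12), Rpl30l3 (0.06 ± 0.43), Rps29 (0.01 ± 0.11), Rps24 (0.00 ± 0.12) and Rps4x (-0.04 ± 0.11), and the groups overlapped for each.

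Members whose symbols mark a duplicate or a tissue-restricted copy were measured wherever their probes passed. Rpl3l, a paralogue of Rpl3 known from heart and skeletal muscle in mouse and human, was dim, at -2.64, -2.68 and -2.32 in the vehicle livers and -2.31, -3.31 and -2.52 in the TBBC livers, with the groups overlapping. Rpl22l1, the paralogue of Rpl22, differed by -0.36 ± 0.15 and Rpl37al2 by -0.37 ± 0.18, both with overlapping groups. Rps4y2 differed by -0.18 ± 0.10 and Rpl37l1 by -0.17 ± 0.10, both without overlap. The single probe of Rpl30l3 read 0.53, 1.57 and 2.40 in the vehicle livers and 1.53, 1.60 and 1.56 in the TBBC livers, the widest spread of the class. The RefSeq gene table held 864 cytosolic and 40 mitochondrial symbols with a pseudogene ending (-ps), so a probe may bind several near-identical transcripts and the value of a single cytosolic gene is uncertain for that reason.

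Probes of the same gene mostly gave the same sign in the cytosolic class. Of its 237 probes, 223 were negative, with a median of -0.19 against -0.05 over all 37222 probes. The 157 probes that did not stand for their gene had a median of -0.19, with 148 negative. In 72 genes with 2 or more probes, every probe was negative in 62, every probe positive in 1, and 9 had probes of opposite sign (Rpl14, Rpl19, Rpl36a, Rpl5, Rpl7, Rps15a, Rps24, Rps29 and Rpsa). The brightest probe was lower than the median of the gene's other probes in 44 of the 72 genes. Rps2 was covered by 7 probes, all negative, from -0.39 to -0.16. With each probe tested on its own, 1 of the 237 cytosolic probes passed the threshold, against 3.22% of all probes. The dimmer probe of Rpl15, a core protein of the large subunit, was that probe and read -0.64, -0.75 and -0.42 against -1.20, -1.54 and -1.45 (-0.80 ± 0.14, limma adjusted p = 0.0425 over all probes), while the brighter one differed by -0.22 ± 0.13.

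In the mitochondrial class 53 of 113 probes were negative and 60 positive, with a median of 0.00. Of 34 genes with 2 or more probes, 8 had every probe negative, 13 every probe positive and 13 probes of opposite sign (Mrpl20, Mrpl30, Mrpl35, Mrpl36, Mrpl38, Mrpl40, Mrpl50, Mrpl58, Mrps14, Mrps15, Mrps16, Mrps2 and Mrps21). No mitochondrial probe passed the threshold.

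**Figure D3:**
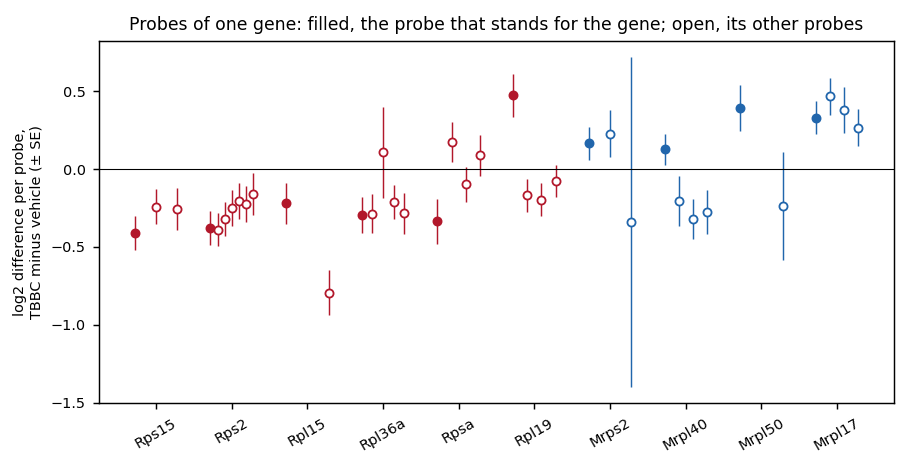
Log2 difference, TBBC minus vehicle (vertical axis, ± SE), of every retained probe of 10 genes, cytosolic in red and mitochondrial in blue; a filled circle is the probe that stands for the gene and open circles are its other probes. The 7 Rps2 probes are all below 0 and the 4 Mrpl17 probes all above it, while the probes of Rpl19 split, 1 at 0.47 and 3 below 0; spike-in scaling moves every probe up by the same amount.

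Mrpl17, a large-subunit protein of the mitochondrial ribosome, had 4 probes, all of them positive. Its brightest probe read 4.91, 4.90 and 5.04 in the vehicle livers and 5.25, 5.34 and 5.24 in the TBBC livers, a difference of 0.33 ± 0.10 (ratio 1.26, limma adjusted p = 0.138). All 4 of its probes had every TBBC array above every vehicle array, with differences from 0.27 to 0.47. Mrps18b, one of the vertebrate paralogues of the bacterial S18 protein, had the highest difference of the class on its single probe. It read 0.90, 1.31 and 1.78 against 1.86, 2.12 and 2.08 (0.69 ± 0.23, limma adjusted p = 0.148), with a wide spread among the vehicle animals. Mrpl55 differed by 0.31 ± 0.13 without overlap, and its second probe by 0.33.

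Other high mitochondrial values came with overlapping groups or with probes that differed. Mrpl49 read 0.47, 0.48 and 0.60 against 0.60, 1.15 and 1.00, with TBBC 1 at the level of vehicle 3 (0.40 ± 0.16). Mrpl50 differed by 0.39 ± 0.15 on its brighter probe and by -0.23 ± 0.35 on a dim one. Mrpl58, a peptidyl-tRNA hydrolase that is part of the large subunit, differed by 0.27 ± 0.13 on one probe and by 0.00 on the other. None of these genes passed the test.

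The lowest mitochondrial differences were about as large as the typical cytosolic one. Mrpl48 read 4.01, 3.96 and 3.81 in the vehicle livers and 3.67, 3.81 and 3.61 in the TBBC livers, with TBBC 2 level with vehicle 3 (-0.23 ± 0.12, limma adjusted p = 0.285). Mrps26 (-0.21 ± 0.10), Mrpl53 (-0.21 ± 0.10) and Mrpl2 (-0.15 ± 0.10) had all TBBC arrays below all vehicle arrays. Mrpl1 (-0.15 ± 0.17) and Mrps33 (-0.14 ± 0.12) overlapped.

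The classes differ in signal, and the difference between groups was therefore also read within the brightest 10% of features. Of the 80 cytosolic genes 75 were among the brightest 10% of features, against 21 of the 67 mitochondrial genes; probe sequence also sets brightness, so this orders probes and not messages. Within that 10% the median difference was -0.22 for the 75 cytosolic genes, 0.00 for the 21 mitochondrial genes and -0.07 for the other 2837 features. Signal was not matched there: the median level was 7.43 for these cytosolic genes, 5.11 for the mitochondrial genes and 5.71 for the other features. All TBBC arrays lay below all vehicle arrays for 70.7% of those cytosolic genes and for 24.8% of the other features. Across steps of 10% in signal the median of all features ran from -0.12 to 0.00.

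**Figure D4:**
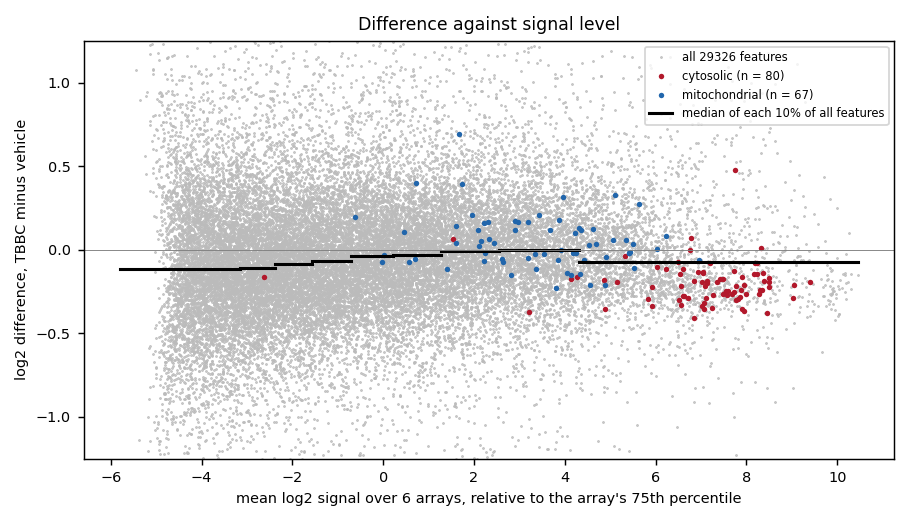
Log2 difference, TBBC minus vehicle (vertical axis), against the mean log2 signal over the 6 arrays relative to each array's 75th percentile (horizontal axis) for all 29326 features (grey), cytosolic (red) and mitochondrial (blue) ribosomal protein genes; the black steps are medians of each 10% of features by signal, and 751 features with larger differences are off the axis. In the brightest 10% the 75 cytosolic genes have a median of -0.22 and the other features one of -0.07; spike-in scaling raises all points alike.

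A TOP start at the annotated position did not separate the cytosolic genes. The 23 genes with a TOP start at the annotated position had a median difference of -0.22, with 22 negative, and the 40 genes without one had a median of -0.24, with 38 negative. The split depends on where the start is annotated. Rps2, Rps3, Rpl21 and Rpl13a were counted without one, though a pyrimidine run lies before the annotated start of each. It therefore cannot compare messages with and without a TOP tract. Rpl19, with the TOP start shown above, and Rps15, with another, were the highest and the lowest of the class. The array measures message amount and not how strongly a message is translated.

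Genes that serve the ribosomes were described by their counts, and none of the 9 lists had a member past the threshold. Of all features 3.08% passed it and 57.6% were negative. Of the cytosolic ribosomal proteins with other symbols 3 of 3 were negative, among them Fau, made as a fusion to a ubiquitin-like protein, at -0.25 ± 0.12. Elongation and release factors, listed together with some messages known for TOP tracts, were negative in 13 of 16 (median -0.11). Among them were the elongation factor Eef1a1 at -0.11 and Tpt1 at -0.15. Whether each of the 16 has a TOP tract was not examined. Initiation factors were negative in 12 of 32 (median 0.06), with the scanning factor Eif1 at 0.27 and the eIF4G relative Eif4g2 at -0.29. The factors that assemble cytosolic ribosomes and make ribosomal RNA were negative in 39 of 83 (median 0.02), among them Nop10, a core protein of pseudouridylation particles, at -0.17 and the nucleolar chaperone Npm1 at -0.12. Regulators in the mTOR and Myc pathways were negative in 11 of 24 (median 0.01), with the translational repressor Eif4ebp1 at -0.33 and the mTORC1 inhibitor Akt1s1 at 0.01. All of these signs are relative to the 75th percentile, and those of Eef1a1, Tpt1, Nop10, Npm1 and Akt1s1 changed in at least 1 of the settings.

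On the mitochondrial side the counts again stand beside the 57.6% of all features that were negative. Mitochondrial ribosomal proteins without an Mrp symbol, listed together with Oxa1l, were negative in 4 of 6 (median -0.15). Their summed level, in multiples of the array's 75th percentile, was 108 to 112 on vehicle and 94.7 to 98.2 on TBBC arrays. At an unadjusted p under 0.05 (limma) 2 of the 6 were lower, against 13.5% of all features. The sum and the signs rest on the 75th percentile scaling. Oxa1l, an inner-membrane insertase that binds the mitochondrial ribosome, had the lowest value of that list (-0.41 ± 0.10, limma adjusted p = 0.0864), and passed under 2 of the settings (normexp, and eBayes with trend and robust). Mitochondrial translation factors were negative in 8 of 13 (median -0.04), with the elongation factor Tufm at -0.18 and the mitochondrial RNA-binding protein Lrpprc at -0.22. Assembly factors of the mitochondrial ribosome were negative in 7 of 25 (median 0.08), with Mpv17l2 at 0.20 and C1qbp at -0.02. The mitochondrial DNA and transcription list was negative in 7 of 17 (median 0.02), with the helicase Twnk at -0.31 and the nuclear receptor Esrra at -0.16. The signs of Tufm, Lrpprc, C1qbp and Esrra changed in at least 1 setting.

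Cell type markers moved with the groups as follows, where 57.6% of all features were negative and 3.08% passed the threshold. Hepatocyte markers were negative in 9 of 12 (median -0.22), with a summed level, in multiples of the array's 75th percentile, of 6471 to 7414 on vehicle and 5669 to 5794 on TBBC arrays; the secreted glycoprotein gene Ahsg fell (-0.83 ± 0.12, limma adjusted p = 0.0292). T, B and NK cell markers were negative in 19 of 20 tested (median -0.30, none past the threshold), with a summed level of 9.57 to 10.6 against 7.46 to 9.01, and Cd2, Cd3e and Cd5 were well above background on no array. Proliferating cell markers were negative in 8 of 9 (median -0.21), at 5.25 to 6.26 against 4.30 to 6.21. Stellate and matrix markers were negative in 8 of 11 (median -0.24), with Rgs5 higher and Pdgfrb lower past the threshold and summed levels that overlapped. Kupffer and myeloid markers (6 of 15 negative, median 0.07) and endothelial markers (3 of 8 negative, median 0.14) had overlapping sums and no member past the threshold. Biliary markers were negative in 4 of 8 (median 0.04), with a summed level of 2.61 to 2.98 against 4.03 to 5.75 and a rise of Epcam (1.83, limma adjusted p = 0.0147). All of these signs and sums are relative to the array's 75th percentile. Under spike-in scaling the median of all features rose from -0.06 to 0.16, and marker differences move up with it. The T, B and NK cell markers were dim, with a median level of -2.70. All features in that 10% step of signal had a median difference of -0.11. The part of any of these cell types in the ribosomal protein values was not tested.

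**Figure D5:**
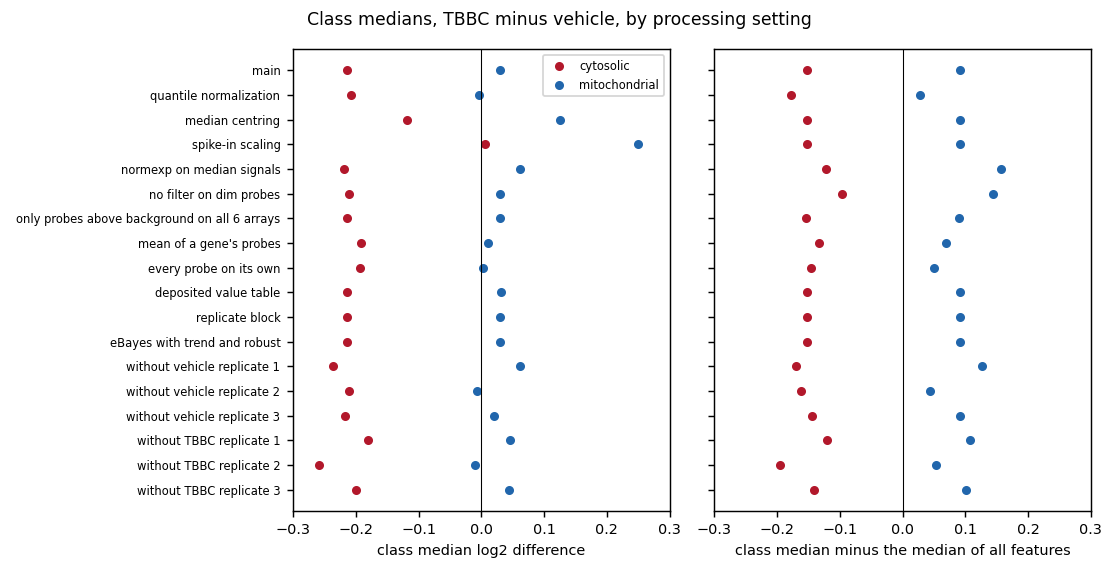
Class medians of the log2 difference, TBBC minus vehicle (left), and the same minus the median of all features (right), under each processing setting, for cytosolic (red) and mitochondrial (blue) ribosomal protein genes. On the left the cytosolic median moves from -0.21 to 0.01 with spike-in scaling, and on the right it stays below 0 and the mitochondrial median above 0 under all settings shown. On the right, median centring and spike-in scaling give the main values by construction, since a factor per array cancels. The replicate block and the other eBayes setting cannot change a median on either side.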

How the data were processed

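The deposited scanner files give spot intensity, linear and background-subtracted; the file headers record Agilent Feature Extraction 10.7.1.1 (the submitters' processing notes say 10.7) and a design for rn4. Labels name separate animals, 1 array each. Here, control spots and 25 outlier-flagged probes were dropped, processed intensity was put on the log2 scale, each array's 75th percentile was subtracted, and 37222 probes well above background throughout at least 1 group entered the fit. RefSeq accessions named 28206 probes (15645 symbols) and left 33331 unnamed. The brightest probe stood for a gene, which gave 29326 features, 11235 of them named. The test was limma 3.58.1 (R 4.3.3; lmFit, eBayes, two-sided, Benjamini-Hochberg over all features, threshold 0.05), tested on simulated data. The deposited value table proved to be processed intensity times a constant per array (75th percentile 1, linear, uncentred; column medians 0.1013, 0.1077 and 0.1033 for vehicle and 0.0977, 0.0972 and 0.0974 for TBBC). No mean signal is used, so normexp (offset 50) took median signals.

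Members and lists were chosen with earlier results of these data known. Genes named are, per class, those past the threshold, the 6 highest and 6 lowest differences, Rplp0 to Rplp2, Rpsa, duplicates, unmeasured members and genes with probes of opposite sign; of each pathway list, members past the threshold or the 2 brightest; of marker lists, members past the threshold. Rpl15 and Rpl36, outside that rule, were singled out after their values were seen. Alternatives were other scalings, background correction, filters, probe rules, the value table, the replicate block, another eBayes setting and leaving out each array. For 2 of the genes so chosen, no values are given.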

Additional observations from a re-analysis of the deposited data

How the results depend on the processing

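With 3 arrays a group on separate slides, the limits are the number of animals, the confounding of slide with treatment, the array scaling and probes that may bind copies of a gene. The cytosolic median was -0.12 with median centring and 0.0062 with spike-in scaling (37 of 80 negative, and none with all TBBC arrays below all vehicle arrays). The mitochondrial median was 0.13 with median centring (10 of 67 negative) and 0.25 with spike-in scaling (1 negative). With every probe on its own, 223 of 237 cytosolic and 53 of 113 mitochondrial probes were negative, and 1 cytosolic probe passed the threshold, against 3.22% of all probes. With normexp on median signals 3 cytosolic genes passed. The count of all features past the threshold, 902, became 1589 with normexp, 194 of 48957 without the filter on dim probes and 120 (without TBBC 2) to 355 (without TBBC 1) when 1 array was left out; leaving out each vehicle array gave 131, 212 and 311. With the replicate number as a block it was 211; same-numbered arrays deviated together with correlations of 0.0035, -0.022 and 0.144, so the numbers were not taken to pair the animals, and the block changed no call of a ribosomal protein gene. Leaving out 1 array gave cytosolic medians of -0.26 to -0.18, with 74 to 77 negative, and mitochondrial medians of -0.01 to 0.06. A slide block could not be fitted, since each slide holds 1 group. Of the calls in marker lists, Ahsg and Rgs5 kept theirs under 8 of 16 alternatives, Pdgfrb under 5 and Epcam under 14. No called value reversed.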
